A study of Homo sapiens with 6 samples.

Results

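The genes described here are the human potassium channel genes, taken as every gene whose symbol is KCN followed by family letters and a number. The rule found 95 genes of the 27968 in the deposited tables. It takes in pore-forming subunits and the auxiliary subunits named with them, and it leaves out antisense and read-through genes whose symbols go on after the number. They were measured by RNA sequencing in A549 and in H23, both established lines derived from human lung cancer, with 3 separate untreated cultures per line. A549 cells were grown in DMEM and H23 cells in a medium spelled RPM1640 in the labels, both with 10% FBS, and RNA was taken at about 80% confluence. No genotype, clone or passage is given in the labels, so line and medium cannot be told apart. In such bulk RNA, fewer cells with a transcript and less of it per cell cannot be told apart either.

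Potassium channels are membrane pores that let potassium ions leave or enter the cell down their electrochemical gradient, and so they set the resting voltage and repolarise the cell after excitation. Voltage-gated channels open on depolarisation, calcium-activated channels open when calcium rises, and inward rectifiers and leak channels conduct near the resting voltage. In airway epithelium, potassium exit keeps the cell interior negative and so drives chloride secretion. Auxiliary subunits carry no pore of their own, but change the gating or the surface level of the pore they bind.

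The A549 libraries held 23399565 to 25348062 reads assigned to genes, and the H23 libraries held 29395807 to 42421616. Levels are TMM-scaled CPM, read counts scaled to library size, unless TPM is named, which is also corrected for transcript length. A floor of 3 counts in 1 library was worth 0.12 to 0.129 CPM in A549 and 0.0706 to 0.1 CPM in H23. H23 replicate 1 stood apart from the other H23 libraries, with rank correlations within H23 of 0.977 to 0.998, against 0.998 for all pairs within A549 and 0.764 to 0.792 between the lines. The 6 epithelial markers looked at were detected in both lines, with summed levels of 4344 to 4614 CPM in A549 and 3635 to 3780 CPM in H23. KRT8 and KRT18 made up nearly all of these sums. EPCAM and CDH1 were called lower in A549, with log2 folds of -0.91 and -1.43. KRT8, KRT19 and CLDN4 were called higher, and KRT18 was not called. The 8 distal lung markers summed to 58.1 to 61.1 CPM in A549 and 25.0 to 42.6 CPM in H23. ABCA3 made up nearly all of this, with 58.8 ± 1.52 CPM in the A549 libraries and 31.7 ± 9.5 CPM in the H23 libraries (SD, n = 3). NKX2-1 had 0 counts in A549 and 2.95 ± 0.44 CPM in H23, NAPSA was not called, and the surfactant genes were at or near 0 in both lines. The summed endothelial markers lay between 0.291 and 0.359 CPM in A549 and between 0.634 and 1.11 CPM in H23. Summed fibroblast markers were 10.1 to 12.2 CPM in A549 and 21.0 to 31.1 CPM in H23, with DCN at 0 in both, and summed blood markers were 9.11 to 10.2 CPM in A549 and 7.0 to 13.2 CPM in H23. Whether these markers have a part in the channel differences was not tested.

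Potassium channel RNA was lower in A549 than in H23. The TPM of all 95 genes summed to 60.2, 60.5 and 68.8 in the 3 A549 libraries, against 189.5, 239.1 and 236.8 in the 3 H23 libraries. The groups did not overlap, and the A549 mean was 0.285 times the H23 mean. On the CPM scale, which is not corrected for length, the sums were 168 ± 6.52 in A549 and 407 ± 47.5 in H23 (SD, n = 3), a ratio of 0.412. The 2 scales also differed over all tested genes, with a median log2 fold of -0.41 on log2(TPM + 1) and -0.03 on counts. The TPM ratio, and the numbers of genes at 1 TPM below, thus include a shift that is not particular to these genes. The cause of that shift was not tested.

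A mean of at least 1 TPM was reached by 13 genes in A549 and by 25 in H23, and 9 of them reached it in both. In A549 the genes with the highest TPM were KCNN4 (12.7 ± 1.5), KCNMA1 (10.2 ± 0.533), KCNK1 (5.99 ± 0.832), KCNF1 (5.42 ± 0.301) and KCNG1 (3.70 ± 0.199). These 5 genes made up 60.3% of the summed TPM in A549. Genes with high TPM in H23 included KCNMA1 (19.3 ± 2.04), KCNK15 (17.5 ± 8.25) and KCNG1 (15.6 ± 2.07), each as mean ± SD of 3 libraries. KCNK1 and KCNF1 in A549, and KCNMA1, KCNK15 and KCNG1 in H23, differed as neighbours by less than the larger of their SDs.

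Of the 95 genes, 51 passed the filter on low counts and were tested with edgeR's quasi-likelihood test, with adjustment over all 15426 genes tested. At an adjusted p under 0.05, 46 of the 51 were called, 90.2% against a background of 77.2% of all tested genes. Among them 13 were higher in A549, 25.5% against 37.6% of all tested genes, and 33 were lower in A549, 64.7% against 39.6%. The 5 tested genes not called were KCNQ3, KCNH4, KCNG3, KCNMB3 and KCNJ2. The CPM values of the lines did not overlap for 46 of the 51, 90.2% against 82.1% of all tested genes. The median log2 fold, A549 over H23, was -1.99 over the 51 genes and -0.03 over all tested genes. With the 3 genes that had no count in 1 line set at their bound, the median of the 51 stayed at -1.99.

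Large differences were more often lower in A549. A log2 fold of -3 or below was called for 20 of the 51 genes, where 8.01% of all tested genes were called at that size. A log2 fold of 3 or above was called for 7, where 7.36% of all tested genes were. A gene at the filter level in every library of only 1 line is selected for a difference, though not every such gene was called. Of all tested genes, 94.7% of those at that level through H23 alone were called lower, and 91.2% of those through A549 alone higher. Of the 51 genes, 18 were at that level through H23 alone and 9 through A549 alone. These were 35.3% and 17.6% of the 51, against 8.85% and 7.21% of all tested genes. All 18 were called lower in A549, and 8 of the 9 were called higher, KCNH4 being the exception. Among the 22 genes at the filter level in all 6 libraries, 15 were called lower and 5 higher in A549, with a median log2 fold of -1.26. Of all 12836 tested genes at that level, 37.5% were called lower and 37.3% higher, with a median of 0.00.

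**Figure D1:**
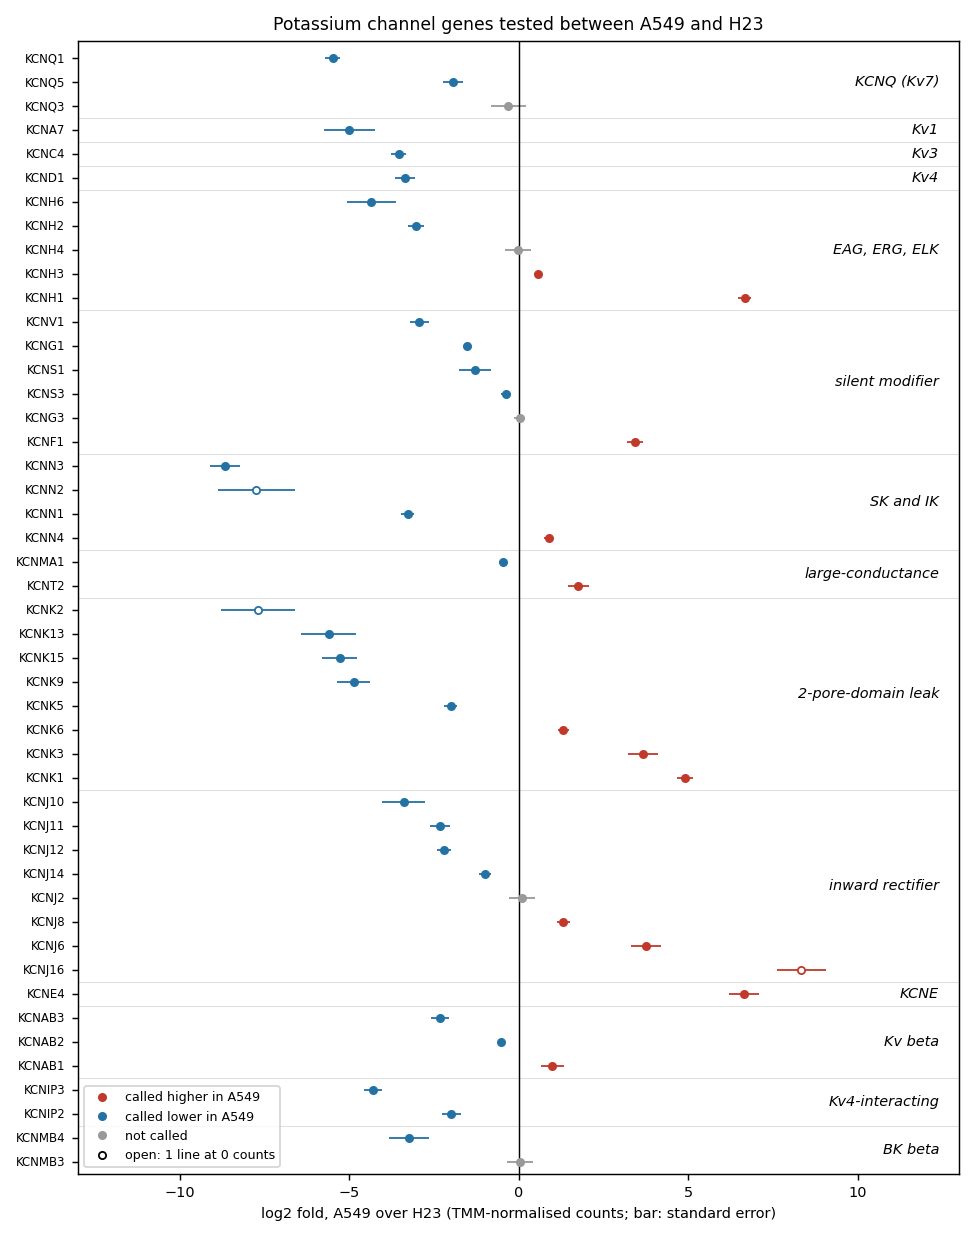
Log2 fold, A549 over H23, of 47 tested potassium channel genes, grouped by role; each point is a gene, the bar is its approximate standard error, and colour gives the call (red higher in A549, blue lower in A549, grey not called). Open points are the 3 genes with 0 counts in 1 line, whose fitted fold is no bound. The Kv4-interacting genes lie left of 0, while the leak and inward rectifier genes fall on both sides.

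Of the 95 genes, 44 were not tested. They had at most 45 counts in a library and a mean of at most 0.533 TPM in either line. No read was assigned in any library to 10 of them, KCNA3, KCNA4, KCNA5, KCNA10, KCNC2, KCNG4, KCNH5, KCNH8, KCNK16 and KCNU1, which allows levels up to the 3-count floor given above in each library. At least 1 read was assigned in A549 to 73 of the 95 genes and in H23 to 80. By role, the untested genes included 7 of the 8 Kv1 (Shaker) genes, 8 of the 16 inward rectifiers, 7 of the 15 leak channels and 4 of the 5 KCNE genes.

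The promoters of 4 genes with large folds are shown first, KCNIP3 and KCNC4, which were lower in A549, and KCNH1 and KCNK1, which were higher in A549. Each is 300 bases of GRCh38.p14 from RefSeq, 250 before and 50 after the annotated start, written 5′ to 3′ on the gene's strand, with the GC box GGGCGG or its complement CCGCCC in capitals. KCNIP3 lies at chr2:95346408-95346707 on the plus strand, KCNC4 at chr1:110210064-110210363 on the plus strand, KCNH1 at chr1:211134099-211134398 on the minus strand and KCNK1 at chr1:233613856-233614155 on the plus strand.
KCNIP3: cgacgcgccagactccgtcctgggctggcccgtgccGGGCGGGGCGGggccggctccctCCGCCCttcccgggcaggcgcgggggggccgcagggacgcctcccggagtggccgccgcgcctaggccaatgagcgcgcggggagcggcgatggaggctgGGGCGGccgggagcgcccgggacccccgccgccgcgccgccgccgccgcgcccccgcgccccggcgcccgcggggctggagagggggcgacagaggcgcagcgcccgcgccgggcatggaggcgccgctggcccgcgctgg
KCNC4: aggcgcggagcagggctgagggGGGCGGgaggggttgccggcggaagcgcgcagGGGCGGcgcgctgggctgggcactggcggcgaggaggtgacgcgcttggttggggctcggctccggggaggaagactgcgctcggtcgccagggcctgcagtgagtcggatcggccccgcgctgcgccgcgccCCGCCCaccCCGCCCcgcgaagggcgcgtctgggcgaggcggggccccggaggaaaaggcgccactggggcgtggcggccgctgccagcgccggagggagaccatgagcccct
KCNH1: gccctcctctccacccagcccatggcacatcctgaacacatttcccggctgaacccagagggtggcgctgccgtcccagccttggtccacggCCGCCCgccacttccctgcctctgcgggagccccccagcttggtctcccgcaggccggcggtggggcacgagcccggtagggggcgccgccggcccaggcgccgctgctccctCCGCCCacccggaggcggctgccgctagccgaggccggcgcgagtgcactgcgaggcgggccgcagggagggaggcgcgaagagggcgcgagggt
KCNK1: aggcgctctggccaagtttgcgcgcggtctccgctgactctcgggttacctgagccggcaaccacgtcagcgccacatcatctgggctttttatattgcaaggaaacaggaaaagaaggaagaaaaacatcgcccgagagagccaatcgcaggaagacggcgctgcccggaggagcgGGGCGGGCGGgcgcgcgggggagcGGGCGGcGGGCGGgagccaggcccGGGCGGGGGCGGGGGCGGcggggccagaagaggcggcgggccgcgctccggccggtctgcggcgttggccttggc
The windows hold 53 CpG dinucleotides in KCNIP3, 41 in KCNC4, 32 in KCNH1 and 38 in KCNK1, against a median of 14 over 27305 promoters of the same table. All 4 windows are CpG-rich and hold GC boxes, but they do not stand for all genes called in their direction. KCNH1 and KCNK1 lie well above the median of 16 over the 11 genes called higher whose promoter was found, which ranged from 4 to 39. KCNIP3 and KCNC4 lie above the median of 31 over the 19 such genes called lower.

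A promoter was found in that table for 71 of the 95 genes. The GC box, searched on both strands, was present in 60.6% of the 71 and in 44.6% of all promoters. It was present in 72.7% of the 11 matched genes called higher in A549 and in 78.9% of the 19 called lower. The median number of CpG dinucleotides was 16 in the genes called higher and 31 in those called lower, 19 over all 71, and 6 in the 9 matched genes with no count in any library. The TATA box TATAAA, on both strands, was present in 8.45% of the 71 and 12% of all promoters. These matches describe the letters in the windows and were not tested against the folds.

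Among the voltage-gated pore subunits, KCNQ1 and KCNQ5 were lower in A549 and KCNQ3 was not called. KCNQ3, a subunit of the neuronal M-current channel that holds back repetitive firing, stayed low in both lines, with 0.166, 0.599 and 0.302 CPM in A549, against 0.528, 0.234 and 0.541 CPM in H23 (log2 fold -0.31 ± 0.52, adjusted p = 0.605). The groups overlapped for KCNQ3. KCNQ1, the pore of the slow delayed rectifier of the heart and of basolateral epithelial potassium channels, had 0.166, 0.120 and 0.129 CPM in A549, against 5.97, 6.12 and 7.01 CPM in H23. All A549 values were at the level of a few reads, and the log2 fold was -5.48 ± 0.22 (adjusted p = 1.44e-06). KCNQ5, a further M-current subunit, was present in both lines at 3.16, 2.72 and 2.33 CPM in A549, against 15.3, 7.38 and 8.69 CPM in H23. It fell by 1.93 ± 0.31 on the log2 scale in A549 (adjusted p = 0.000964), with H23 replicate 1 well above the other H23 libraries.

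The Kv3 (Shaw) genes encode fast channels that end action potentials quickly. KCNC4, of this family, stayed measurable in A549, at 2.62, 3.16 and 2.97 CPM, against 24.3, 38.2 and 39.1 CPM in H23. The groups were well apart, with H23 replicate 1 the lowest of its line, and the log2 fold was -3.54 ± 0.22 (adjusted p = 1.09e-05). KCNC1, also of this family, did not pass the filter. KCND1, a Kv4 subunit of transient A-type currents, had 0.416, 0.839 and 0.776 CPM in A549, against 5.20, 7.79 and 7.98 CPM in H23 (log2 fold -3.36 ± 0.30, adjusted p = 5.56e-05). KCNA7 was the single tested Kv1 gene of 8, with a log2 fold of -4.99 ± 0.75 (-7.98 without A549 replicate 2), and 4 of the 8 had no read in any library.

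The EAG, ERG and ELK genes, a further voltage-gated group, moved in opposite directions. Of 5 tested, 2 were higher and 2 lower in A549 and 1 was not called, where 37.6% of all tested genes were higher and 39.6% lower. The TPM of the group summed to 3.93 ± 0.14 in A549 and 5.29 ± 0.83 in H23 (SD, n = 3). In CPM the sums ran the other way, 22.1 ± 0.106 in A549 and 11.4 ± 1.43 in H23, so the direction of the sum depends on the scale. KCNH1, which encodes EAG1, a channel found mainly in brain and in many tumours, had 16.2, 16.2 and 16 CPM in A549, against 0.106, 0.200 and 0.165 CPM in H23. The A549 values were nearly equal and the H23 values rested on 4 to 7 reads each, and the log2 fold was 6.67 ± 0.19 (adjusted p = 4.36e-07). KCNH2, the hERG channel of cardiac repolarisation, ran the other way, with 1.04, 0.599 and 0.862 CPM in A549, against 5.65, 7.28 and 7.44 CPM in H23. It fell by 3.02 ± 0.23 on the log2 scale in A549 (adjusted p = 2.78e-05). KCNH6, another ERG gene, had a log2 fold of -4.35 ± 0.72, and of -7.34 without A549 replicate 2.

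KCNH3, an ELK gene, had 4.45, 4.67 and 4.53 CPM in A549, against 2.96, 3.17 and 3.06 CPM in H23. The groups did not overlap, and the log2 fold was 0.57 ± 0.12 (adjusted p = 0.0045). In TPM its means were 1.31 ± 0.05 in A549 and 1.3 ± 0.104 in H23 (SD, n = 3), and with limma on log2(TPM + 1) the difference was 0.01 (adjusted p = 0.919). Its call therefore holds on the CPM scale and not on the TPM scale. On that TPM scale the median of all tested genes shifted to -0.41.

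The electrically silent modifiers form no channel alone and instead alter Kv2 channels. Their TPM summed to 12.3 ± 0.631 in A549 and 22.3 ± 2.53 in H23 (SD, n = 3). Of 6 tested, 1 was higher and 4 were lower in A549, where 37.6% and 39.6% of all tested genes were. KCNF1 had 10.2, 11.3 and 10.7 CPM in A549, against 0.634, 1.24 and 1.11 CPM in H23, and rose in A549 by 3.44 ± 0.24 on the log2 scale (adjusted p = 1.54e-05). KCNG1 had 7.44, 6.83 and 7.03 CPM in A549, against 18.5, 21.4 and 21.5 CPM in H23, and fell by 1.53 ± 0.11 on the log2 scale in A549 (adjusted p = 1.83e-05). In TPM, KCNF1 was at 5.42 in A549 and 0.74 in H23, and KCNG1 was at 3.70 in A549 and 15.6 in H23. KCNV1 had a log2 fold of -2.93 ± 0.28, KCNG3 was not called (0.03 ± 0.17), and KCNS1 (-1.28 ± 0.48, adjusted p = 0.042) and KCNS3 (-0.37 ± 0.14, adjusted p = 0.0417) were close to the threshold. KCNS1 kept its call in 6 of 12 alternatives and KCNS3 in 8 of 15. With the trend over gene length and GC content removed, the KCNS3 fold was 0.049 (adjusted p = 0.777), the other sign.

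The calcium-activated genes of small and intermediate conductance had a summed level of 13 ± 1.48 TPM in A549 and 14.7 ± 1.9 TPM in H23 (SD, n = 3). KCNN4 held most of the sum in both lines, 12.7 TPM in A549 and 10.1 TPM in H23. KCNN4, the intermediate-conductance channel of epithelia and blood cells, had 23.9, 23.2 and 26.9 CPM in A549, against 11.4, 14 and 14.5 CPM in H23. It rose in A549 by 0.89 ± 0.13 on the log2 scale (adjusted p = 0.000569), without overlap. In TPM it was 12.7 ± 1.5 in A549 and 10.1 ± 1.72 in H23 (SD, n = 3), and with limma on log2(TPM + 1) the difference of 0.32 was not called (adjusted p = 0.0869). The 3 small-conductance genes, which follow calcium through bound calmodulin and slow firing in neurons, were all lower in A549.

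KCNN1 had 0.582, 0.479 and 0.431 CPM in A549, against 4.36, 4.85 and 5.30 CPM in H23 (log2 fold -3.27 ± 0.19, adjusted p = 7.56e-06). KCNN3, named here after its values were seen, had 0, 0.0399 and 0 CPM in A549, against 7.37, 8.22 and 6.24 CPM in H23. That is 1 read in A549 and 790 in H23, and the H23 level was 517 times the A549 level, with a 95% counting interval of 92.6 to 20462. KCNN2, also named after its values were seen, had no read in A549 and 1.35, 0.668 and 0.588 CPM in H23. Against a floor of 3 counts over the A549 libraries, KCNN2 was at least 21.0-fold lower in A549.

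KCNMA1, the BK channel of large conductance, was among the genes of highest TPM in both lines. It had 29.6, 30.6 and 32.9 CPM in A549, against 35.7, 44.4 and 47.5 CPM in H23. The groups did not overlap, and the log2 fold was -0.45 ± 0.13 (adjusted p = 0.0132). Without A549 replicate 1 the adjusted p was 0.0605, and without A549 replicate 2 it was 0.0532. Its auxiliary subunit KCNMB3 was not called (log2 fold 0.05 ± 0.38, adjusted p = 0.914), with 2.16, 2.12 and 2.20 CPM in A549, against 3.43, 1.27 and 1.53 CPM in H23. The A549 libraries lay inside the spread of H23, which was set by replicate 1. Without H23 replicate 1 the KCNMB3 log2 fold was 0.60 (adjusted p = 0.0125). KCNMB4, another BK beta subunit, had a log2 fold of -3.24 ± 0.58, which was -2.64 without A549 replicate 1 and -4.02 without A549 replicate 3. KCNT2, a sodium-activated channel, had a log2 fold of 1.76 ± 0.31 at under 1 CPM in every library. With the trend over gene length and GC content removed, the KCNT2 fold was 0.57 and not called (adjusted p = 0.113).

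**Figure D2:**
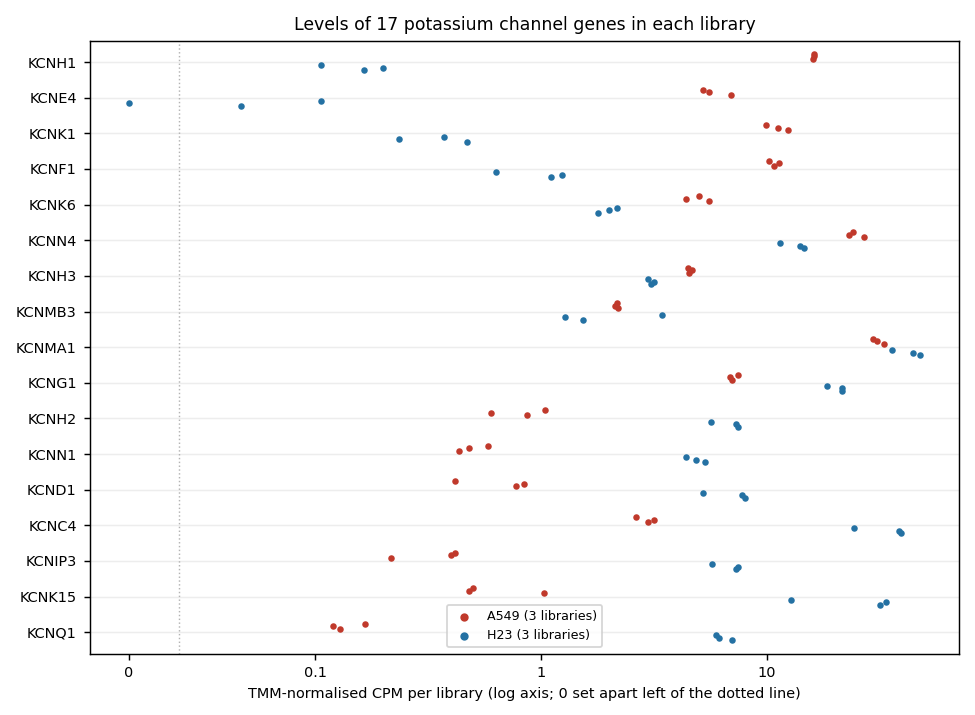
TMM-normalised CPM of 17 potassium channel genes in each library, on a logarithmic axis with 0 set apart left of the dotted line; red points are the 3 A549 libraries and blue points the 3 H23 libraries. KCNH1, KCNE4, KCNK1 and KCNF1 are higher in A549 by wide gaps, KCNMB3 overlaps, and the genes from KCNG1 down to KCNQ1 are higher in H23 with widening gaps.

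The 2-pore-domain leak channels set the resting voltage of many cells. Their TPM summed to 10.7 ± 1.41 in A549 and 30.6 ± 10.7 in H23 (SD, n = 3). Of 8 tested, 3 were higher and 5 lower in A549, where 37.6% and 39.6% of all tested genes were. KCNK1, an epithelial member of the TWIK group, had 9.93, 11.1 and 12.3 CPM in A549, against 0.370, 0.234 and 0.471 CPM in H23. It was far higher in every A549 library, with a log2 fold of 4.91 ± 0.23 (adjusted p = 3.23e-06). KCNK6, of the same group, had 4.99, 4.39 and 5.52 CPM in A549, against 2.17, 2.0 and 1.79 CPM in H23 (log2 fold 1.32 ± 0.16, adjusted p = 0.000238). KCNK3, an acid-sensitive channel of the TASK group, had a log2 fold of 3.66 ± 0.44 at a mean of 0.40 TPM in A549 and 0.04 TPM in H23. Without H23 replicate 3 the KCNK3 log2 fold was 4.47.

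The leak channels that fell in A549 were led in level by KCNK15, a TASK-like subunit that gives little or no current by itself. KCNK15 had 0.499, 0.479 and 1.03 CPM in A549, against 12.8, 33.6 and 31.5 CPM in H23, where replicate 1 was the low library (log2 fold -5.28 ± 0.51, adjusted p = 8.03e-05). KCNK5, an alkaline-activated channel known from kidney tubules, had 5.15, 4.83 and 5.6 CPM in A549, against 15.9, 22.1 and 24.6 CPM in H23. It fell by 2.0 ± 0.19 on the log2 scale in A549 (adjusted p = 6.57e-05). KCNK2, the stretch-sensitive TREK1 channel, had no read in A549 and 0.951, 1.14 and 0.471 CPM in H23, and was at least 19.6-fold lower in A549. KCNK9 (-4.87 ± 0.48) and KCNK13 (-5.6 ± 0.82) were lower in A549 at no more than 1 TPM, and without A549 replicate 1, which held the one KCNK13 read of its line, the KCNK13 fold was -7.78.

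The inward rectifiers were low in both lines, with TPM sums of 3.21 ± 0.0173 in A549 and 8.11 ± 1.68 in H23 (SD, n = 3). Of 8 tested, 3 were higher and 4 lower in A549, close to the 37.6% and 39.6% of all tested genes. KCNJ16, which forms acid-sensitive channels with KCNJ10, had 1.62, 1.44 and 0.905 CPM in A549 and no read in H23, and was at least 48.9-fold higher in A549. KCNJ10 itself ran the other way, with 0.125, 0.0399 and 0 CPM in A549, against 0.634, 0.769 and 0.471 CPM in H23 (log2 fold -3.39 ± 0.63, adjusted p = 0.00209). The values of KCNJ10 were a few reads in A549, and without A549 replicate 1 its fold was -4.64.

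The ATP-sensitive pair split as well. KCNJ8 had a log2 fold of 1.32 ± 0.20, with means of 0.67 TPM in A549 and 0.39 TPM in H23, and KCNJ11, the pore of the pancreatic beta cell channel, had a fold of -2.32 ± 0.29, with means of 0.40 TPM in A549 and 2.90 TPM in H23. KCNJ6, a G-protein-gated channel, rose in A549 (log2 fold 3.75 ± 0.44). KCNJ12 (-2.21 ± 0.20) and KCNJ14 (-0.99 ± 0.17) fell in A549. KCNJ12 shares most of its sequence with KCNJ18, so the division of its reads is uncertain. KCNJ2, of the same strong rectifier group, was not called (0.10 ± 0.40, adjusted p = 0.821).

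**Figure D3:**
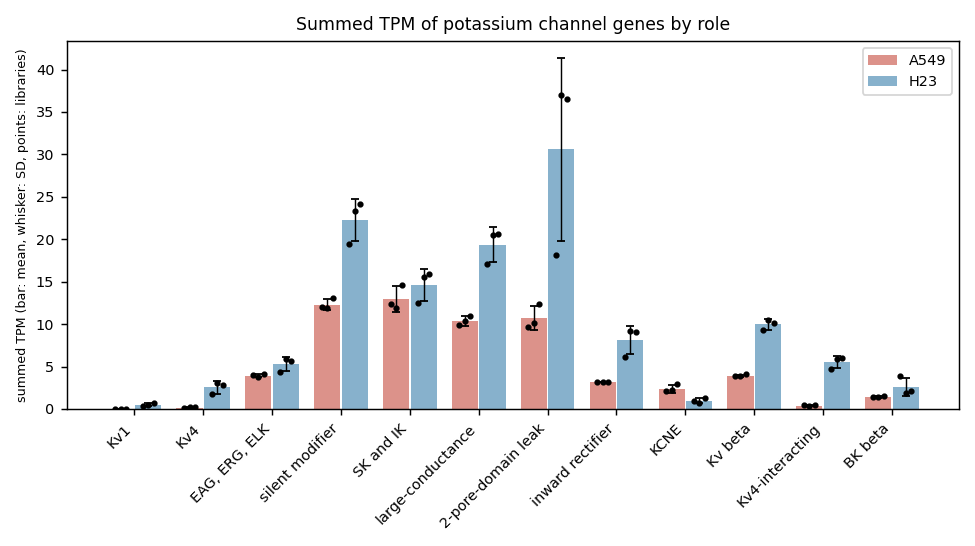
Summed TPM of the potassium channel genes for 12 of the 15 roles, with every gene of a role counted; bars are means of 3 libraries, whiskers are SD, and points are single libraries, A549 in red left of H23 in blue. The leak channel sum is 10.7 in A549 and 30.6 in H23, while the SK and IK sum is 13 in A549 and 14.7 in H23.

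Among the auxiliary subunits, KCNE4 was higher in A549 and the 2 tested KCNIP genes were lower. KCNE4, a single-span subunit that inhibits KCNQ1 channels, had 5.20, 5.55 and 6.90 CPM in A549, against 0.106, 0 and 0.0471 CPM in H23. It was clear of H23 in every A549 library (log2 fold 6.66 ± 0.44, adjusted p = 1.34e-05), and without H23 replicate 1 the fold was 7.52. KCNE4 was the one tested KCNE gene of 5. KCNIP3, a calcium sensor that binds Kv4 channels and is also known as the transcription factor DREAM, had 0.416, 0.399 and 0.216 CPM in A549, against 5.73, 7.45 and 7.32 CPM in H23. It fell by 4.29 ± 0.26 on the log2 scale in A549 (adjusted p = 8.27e-06). KCNIP2, which serves Kv4 channels in the heart, had a fold of -1.99 ± 0.28, and the KCNIP sum was 0.39 ± 0.0721 TPM in A549 and 5.53 ± 0.731 TPM in H23 (SD, n = 3).

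The Kv beta subunits, which bind Kv1 channels inside the cell, summed to 3.93 ± 0.119 TPM in A549 and 9.97 ± 0.645 TPM in H23 (SD, n = 3). KCNAB2 held most of this and had 12, 12.1 and 11.5 CPM in A549, against 15.4, 17.6 and 17.4 CPM in H23 (log2 fold -0.50 ± 0.10, adjusted p = 0.0028). With the trend over gene length and GC content removed, KCNAB2 was not called (-0.05, adjusted p = 0.664). KCNAB3 had a fold of -2.31 ± 0.27. KCNAB1 was higher in A549 by 0.99 ± 0.34 (adjusted p = 0.0314), a call that was kept in 5 of 14 alternatives.

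Of the 95 genes, 51 have at least 2 annotated transcripts and 44 have 1, a split that does not follow the filter on gene counts. Transcript shares could be tested for 11 genes, with edgeR's gene-level usage test over 7539 genes. KCNC4 (adjusted p = 0.022), KCNQ1 (0.0294) and KCNH1 (0.0311) were called, 3 of 11 against a background of 25.8%. Each call was unstable, and none was called with the replicate number as a block. KCNC4 was called in 4 of 9 alternatives, and KCNQ1 and KCNH1 in 3 of 9 each. Without any one of the A549 libraries or without H23 replicate 2, a single channel gene was called. The line with low expression gave few reads, 4, 3 and 3 for KCNQ1 in A549 and 4, 6 and 7 for KCNH1 in H23.

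The share of abundance of the main KCNC4 transcript, NM_004978, was 94.8% ± 9.08 in A549 and 82.1% ± 2.55 in H23 (SD, n = 3). The non-coding NR_036437 made up 9.57% ± 1.20 of KCNC4 in H23 and had no read in A549. KCNH1 in A549 was 83.0% ± 9.92 NM_002238 and 17.0% ± 9.92 NM_172362. KCNQ1 in H23 was split unevenly among cultures, with NM_181798 at 72.4%, 86.5% and 39.9%.

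RSEM divides reads among overlapping transcripts by a model, so these shares carry an error that the SD over libraries leaves out. KCNMA1 had 17 transcripts and no usage call (adjusted p = 0.997). Its main long transcript, NM_002247, made up 43.4% ± 0.0503 in A549 and 47.3% ± 5.20 in H23 (SD, n = 3). The 4 KCNMA1 transcripts under 1500 bases made up 53.5% ± 2.61 of the abundance in A549 and 49.7% ± 6.18 in H23, but 12.5% of the reads in A549 and 10.5% in H23.

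**Figure D4:**
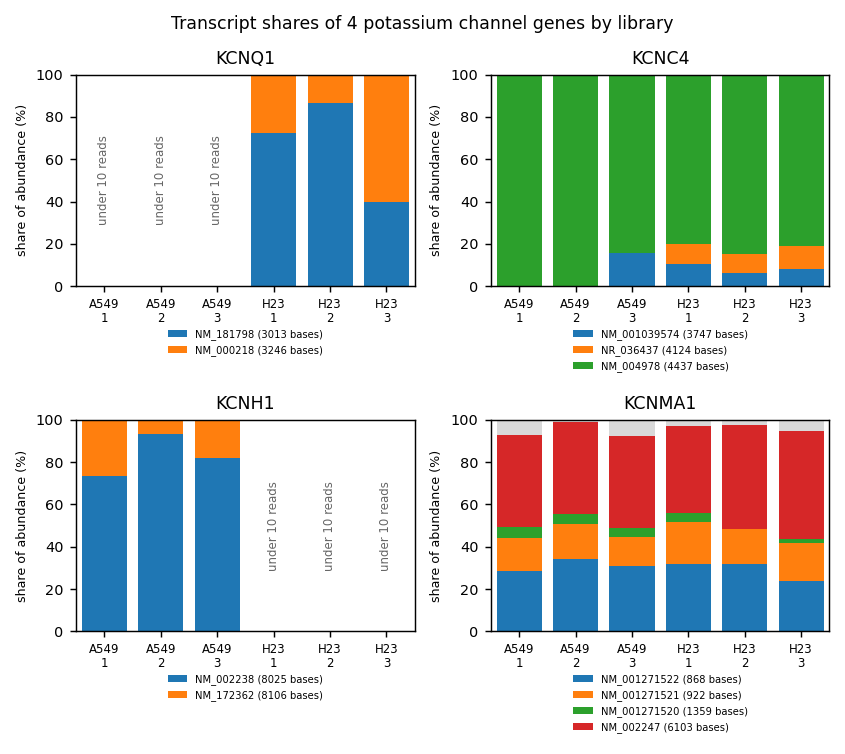
Share of each transcript in the abundance of its gene, in percent, for 4 potassium channel genes in each library, A549 libraries left of H23 libraries; colours are transcripts with their length in bases, grey is the remaining transcripts, and libraries with under 10 reads for the gene are left blank. NM_004978 leads KCNC4 in every library, and the KCNQ1 shares vary among the H23 libraries.

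The library kit keeps strand, but the strand setting of the counting is not given in the sources used here, so reads of a gene and of an overlapping gene on the other strand may not have been told apart. Of the tested genes, 10 share exon bases with another gene of the tables, by the GENCODE v29 annotation of GRCh38. KCNQ1OT1, the long antisense RNA inside KCNQ1, had 12.6, 11.5 and 13.7 CPM in A549, against 0.0264, 0.0334 and 0.0941 CPM in H23, the reverse of KCNQ1. RIMS4, opposite KCNK15, had 4.03, 3.79 and 2.97 CPM in A549, against 44.0, 73.8 and 79.2 CPM in H23. KCNK15 and RIMS4 thus fell together in A549 and shared the low H23 replicate 1. PIK3CA, opposite KCNMB3, had 22.8, 24.6 and 22.9 CPM in A549, against 14.6, 4.85 and 3.60 CPM in H23, and H23 replicate 1 was the high library of its line for both genes. MCRS1, opposite KCNH3, was higher in A549 by 0.77 ± 0.09 on the log2 scale, and KCNH3 by 0.57 ± 0.12. KCNJ14 overlaps GRWD1 on the same strand, so strand cannot separate reads of their shared bases. GRWD1 had 167 ± 4.64 CPM in A549 and 79.0 ± 14.2 CPM in H23, where KCNJ14 had 1.67 ± 0.121 and 3.34 ± 0.465 CPM (SD, n = 3). Whether reads were shared within these pairs was not tested.

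Other genes of potassium transport were looked at in 4 lists. Their counts stand beside 37.6% of all tested genes called higher and 39.6% called lower in A549, with a median log2 fold of -0.03. Of 17 pump genes, 9 were tested, and 2 were higher and 7 lower in A549, with a median log2 fold of -2.22. ATP1B3, a beta subunit of the sodium-potassium pump, had a log2 fold of -2.0 ± 0.08. ATP1B1, another beta subunit, went the other way, with 273, 296 and 305 CPM in A549, against 30.2, 30.4 and 34.6 CPM in H23 (log2 fold 3.20 ± 0.10, adjusted p = 5.78e-07). FXYD2, the pump regulator known from kidney, had 10.6, 10.5 and 12.2 CPM in A549 and no read in H23, and was at least 408-fold higher in A549.

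Of 13 cotransporter and regulator genes, 11 were tested, and 3 were higher and 5 lower in A549 (median -0.28). SLC12A2, which loads cells with sodium, potassium and chloride, had 110, 105 and 102 CPM in A549, against 12.9, 10.8 and 11.5 CPM in H23 (log2 fold 3.17 ± 0.10, adjusted p = 6.79e-07), and the regulatory kinase WNK1 had a fold of -1.55 ± 0.08. Of 19 channel partner genes, 12 were tested, with 4 higher and 4 lower in A549 (median -0.06). AMIGO2, of the family whose member AMIGO1 accompanies Kv2 channels, had 688, 699 and 723 CPM in A549, against 4.02, 5.95 and 5.20 CPM in H23, while AMIGO1 had a fold of -1.99 ± 0.21. REST, a repressor of many neuronal genes, had 48.7, 44.7 and 47.2 CPM in A549, against 35.0, 15.5 and 16.9 CPM in H23 (log2 fold 1.06 ± 0.31, adjusted p = 0.016), and H23 replicate 1 lay closer to A549. Of 13 other potassium-permeable channel genes, 7 were tested, with 3 higher and 3 lower in A549 (median -0.05), among them HCN3, a pacemaker channel, with a fold of -2.59 ± 0.21.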

How the data were processed

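RNA of 6 cultures, 3 of A549 and 3 of H23, was prepared with a strand-keeping kit after removal of ribosomal RNA, per the labels' protocols. The submitters' processing notes name STAR 2.6.0c, RSEM 1.3.0 and hg19. Options, annotation release and strand setting are not given in the sources used here. Per the file headers, the authors deposited expected counts, the reads RSEM estimated for each gene or transcript. Their deposited TPM values are RSEM abundances corrected for length and scaled to a fixed total. The deposited FPKM values were not used in any test. The deposited percent values give a transcript's share of its gene.

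Expected counts were rounded and tested with edgeR 4.0.16 in R 4.3.3 on all genes kept by filterByExpr (minimum count 10, total 15), with TMM factors of 0.985 to 1.02, the robust quasi-likelihood F test, Benjamini-Hochberg adjustment and a threshold of 0.05. Each log2 fold is A549 over H23 and stands ± an approximate standard error, the absolute fold over the square root of F. The common biological coefficient of variation was 0.168. The smallest exact permutation p for 3 against 3 libraries is 0.1, so calls rest on the model. A fold against a line with 0 counts was bounded with 3 counts over the line; floors and intervals cover counting error only. Usage was tested with edgeR's diffSpliceDGE. DESeq2 1.42.0, limma 3.58.1, other factors and filters, a length and GC trend, a replicate block and leaving out each library were alternatives. The fits were checked on simulated counts.

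Named genes were called members with at least 1 TPM in the higher line, the 10 of largest fold per direction, the 5 of highest TPM in each line, and members not called with at least 1 TPM in both. In the 4 lists, up to 3 called genes per direction were eligible by TPM. Other genes were chosen after their values were seen. The members and lists were chosen with earlier results of these data known. Values of 4 member genes and of 1 pump gene are not reported here one by one; fits, counts and sums include them. Promoters are from RefSeq, GRCh38.p14.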

Additional observations from a re-analysis of the deposited data

How the results depend on the processing

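The number of members called was 13 higher and 33 lower in A549, and over the alternatives other than leaving out a library it was 10 to 16 higher and 25 to 40 lower. The 16 and 40 came without a filter, where more genes were tested, and the 25 with a CPM of at least 1, where fewer were. On log2(TPM + 1), 10 and 34 of the members were called higher and lower. Of all genes it was 3868 and 8334, against 5801 and 6109 on counts, and the cause was not tested. Lower calls there were 66.7% of members and 54.0% of all genes. DESeq2 called 64.6% of 79 members against 66.6% of all genes, and the fit without a filter 65.9% of 85 against 61.6%. With the length and GC trend removed it was 82.4% against 80.7%, and with a CPM of at least 1 it was 94.6% against 78.0%. Lower calls alone were 46.8% against 33.7% with DESeq2 and 58.8% against 39.7% with the trend removed. Leaving out 1 library gave 12 to 14 higher and 32 to 36 lower. Without H23 replicate 1, 92.3% of tested members were called, against 88.6% of all tested genes, where the full set gave 90.2% against 77.2%; lower calls alone were 65.4% of members and 44.6% of all. The median log2 fold of -1.99 was -1.72 with DESeq2 and -1.66 without a filter, where all tested genes had -0.04 and -0.07. On log2(TPM + 1) it was -0.64, against -0.41 over all tested genes. With the length and GC trend removed it was -1.51 against 0.03. Over the left-out libraries the members' median was -2.20 to -2.01. The summed TPM ratio of 0.285 was 0.412 in CPM. Of the lists, cotransporters called lower were 8 in place of 5 and channel partners 7 in place of 4 on log2(TPM + 1).

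The replicate numbers are shared by the lines, but same-numbered libraries deviated together with correlations of only -0.0389 to 0.0544. Of the 3 A549 libraries, 2 correlated best with their own number. With 3 libraries per line, these values cannot decide whether same-numbered libraries share more than a number. With the replicate number as a block, 13 members were higher, 31 lower and 0 had changed usage. Changed usage was called for 3 members, 1 by the Simes test, and 1 to 2 over the left-out libraries.

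For the 20 members named by rule, 287 results under alternatives kept direction and call, 6 changed sign, 6 lost the call and 1 gained one. KCNMB3, never called with all libraries, had log2 folds of -0.081 with upper quartile factors, -0.26 on log2(TPM + 1), -0.36 on log2(TPM + 0.1), -0.061 with the trend removed, and -0.20 to 0.60 over the left-out libraries. KCNN4, KCNH3 and KCNMA1 lost their calls as given above, and KCNAB1, KCNAB2, KCNS1, KCNS3 and KCNT2 did so under at least 1 alternative each. The other 38 of the 46 called members kept direction and call under every alternative that tested them. Where a line gave few reads for a gene, a left-out library of that line moved the folds given above by over 1.5 times on the linear scale. The log2 fold of KCNMB4 went from -3.24 to -2.64 without A549 replicate 1, and that of KCNA7 from -4.99 to -7.98 without A549 replicate 2. Whether depth had a part in this was not tested.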

Other observations

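Genes named for a potassium channel but outside the rule, such as antisense and intronic RNAs, numbered 22. No read was assigned to 8 of them in any library, and 3 were tested. KCNQ1OT1, the antisense RNA inside KCNQ1, had a log2 fold of 7.75 ± 0.28 in A549 over H23, where KCNQ1 had -5.48 ± 0.22. KCNH1-IT1, an RNA from an intron of KCNH1, was higher in A549 by 3.45 ± 0.40 on the log2 scale (edgeR adjusted p = 0.000202), as was KCNH1 by 6.67 ± 0.19. KCNRG, a regulator that binds Kv1 channels, was not called (log2 fold -0.56, adjusted p = 0.284). KCNC4-AS1 had no read in A549 and 0.185, 0.501 and 0.141 CPM in H23, and was not tested.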
